A study of Mus musculus with 6 samples.

Results

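The transcripts described here are those of 47 genes for DNA replication and S phase, the part of the cell cycle in which the genome is copied. The genes were listed by name, with earlier results of these data known. Each was read from the probe sets that carry exactly 1 gene symbol, and where a gene had several, from the probe set with the highest mean over the 6 arrays. All 47 were measured, among 19938 genes in all. The RNA came from type II alveolar epithelial cells, the lung cells that make surfactant, isolated from mice aged 8 weeks and lysed 2 hours after isolation. In 3 pools, labelled knockout, the mice carried 2 transgenes, SP-C-rtTA and (tetO)7CMV-Cre, and were Gpr116flx/flx. In the 3 control pools the mice carried both transgenes without the floxed allele. The surfactant protein C promoter drives rtTA, which switches on Cre in the presence of a tetracycline, and Gpr116 codes for an adhesion receptor. Each pool joined cells of 3 mice, and the isolation rested on collagenase and differential plating. The time of Cre induction was not part of the labels used.

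Before a cell can copy its DNA, the origin recognition complex with Cdc6 and Cdt1 loads the MCM helicase onto origins. Cdc45 and the GINS complex turn the helicase on, primase and DNA polymerase alpha start each strand, and polymerases delta and epsilon extend it on the sliding clamp Pcna. Many of these genes are switched on together at the entry into S phase by E2F transcription factors. Mature type II cells seldom divide in the healthy adult lung, but they re-enter the cell cycle when they act as progenitors after injury.

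The probe set for Gpr116, named Adgrf5 in the annotation, read 11.89, 11.78 and 11.87 in the labelled knockout pools, against 11.49, 11.53 and 11.51 in control pools, in log2 units. It was thus higher, not lower, on the arrays labelled knockout, by 0.34 ± 0.05 or 1.26-fold (limma adjusted p = 0.0119), against the direction that the label would give a probe set inside the deleted part. The position of its probes with respect to the floxed exons is unknown, so whether this reading bears on the labels was not tested, and every direction below rests on the labels. Correlations between arrays over all genes were 0.988 to 0.993 among the arrays labelled knockout and 0.996 to 0.998 among the control arrays. The type II cell marker Sftpc read 13.11 to 13.18 in the labelled knockout pools, against 13.14 to 13.16 in control pools, close to the top of the scale. By Xist and Y-linked genes, 1 pool in each group was male, namely knockout 2 and control 1, and 2 in each group were female. The labels call the groups sex matched, and these counts are the same in both. Each pool is a separate sample of mice, so the p-values set the group difference against the spread between pools.

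The windows at the transcript starts of these genes were searched for the letters that E2F factors bind, because that shared feature took no part in choosing the genes. RefSeq windows (GRCm38.p6) running from 250 bases before to 50 bases from the start on were matched by symbol for 39 of the 47 genes, with 47 windows in all. Mcm4, Gins1, Gins2, Gins4, Prim2, Pole, Rfc2 and Ccne2 had no entry. An E2F site was taken as TTTCCCGC, TTTCGCGC, TTTGCCGC or TTTGGCGC on either strand. It was present in 16 of the 39 genes, or 41.0%, against 3.48% of 15614 tested genes with a window. The stretches below show such sites in 6 of the 16, chosen to cover the helicase, origin licensing, clamp loader and polymerase. Capitals mark the E2F letters, and each stretch reads 5′ to 3′ on the strand of the gene.
Mcm6 (chr1:128359729-128359831, minus strand): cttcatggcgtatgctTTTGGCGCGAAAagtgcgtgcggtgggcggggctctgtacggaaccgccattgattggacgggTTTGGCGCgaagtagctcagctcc
Mcm5 (chr8:75109340-75109383, plus strand): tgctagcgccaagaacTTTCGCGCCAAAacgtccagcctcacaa
Orc1 (chr4:108579411-108579450, plus strand): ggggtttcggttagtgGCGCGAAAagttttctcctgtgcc
Rfc3 (chr5:151651185-151651234, minus strand): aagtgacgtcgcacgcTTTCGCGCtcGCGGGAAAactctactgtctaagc
Cdc6 (chr11:98907997-98908036, plus strand): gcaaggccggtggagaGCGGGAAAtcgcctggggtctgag
Pola1 (chrX:93632270-93632309, minus strand): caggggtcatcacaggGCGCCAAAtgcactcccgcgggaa

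In Mcm6 and Mcm5 a match on the gene's strand overlapped a match on the other strand, so that 1 unbroken run of capitals holds both. The 3 matches of Mcm6 began at -110, -106 and -47, counted in bases from the transcript start. In Rfc3, which codes for a clamp loader subunit, they began at -10 and 0. The site began at -27 in Orc1 and at -138 in both Cdc6 and Pola1. By role, the site was found in 4 of 5 MCM helicase genes with a window, in 3 of 4 origin licensing genes and in 3 of 5 primase and polymerase genes, but in 0 of 4 nucleotide supply genes and 0 of 3 single-strand binding genes. A match to these letters is a description of the window and does not show that a factor binds there.

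Replication transcripts were mostly a little higher on the arrays labelled knockout. The difference, labelled knockout minus control on the log2 scale, was positive for 42 of 47 genes and negative for 5, with a median of 0.163, where the median over all genes was 0.003 and 51.9% of all genes were positive. With limma and Benjamini-Hochberg adjustment over all genes, 5 of the 47 passed an adjusted p of 0.05, and all 5 rose: Rfc4, Rrm2, Tyms, Prim2 and Ccne1. These are 10.6% of the genes, against 3.36% of all genes called higher and 8.49% called in either direction. No replication gene was called lower, and 1 of them, Rfc2, had an unadjusted p under 0.05 in that direction. The other 42 genes did not pass. The groups did not overlap, with every array labelled knockout above every control array, for 16 of the 47 genes (34.0%, against 14.8% of all genes), and they did not overlap in the other direction for Rfc2 and Gins4. An unadjusted p under 0.05 with a higher level on the arrays labelled knockout was found for 20 genes (42.6%, against 11.5% of all genes). Since the list was made with earlier results of these data known, these shares describe it and are not independent support. In a pool of cells, more cells in S phase and more replication RNA per cell cannot be told apart.

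**Figure D1:**
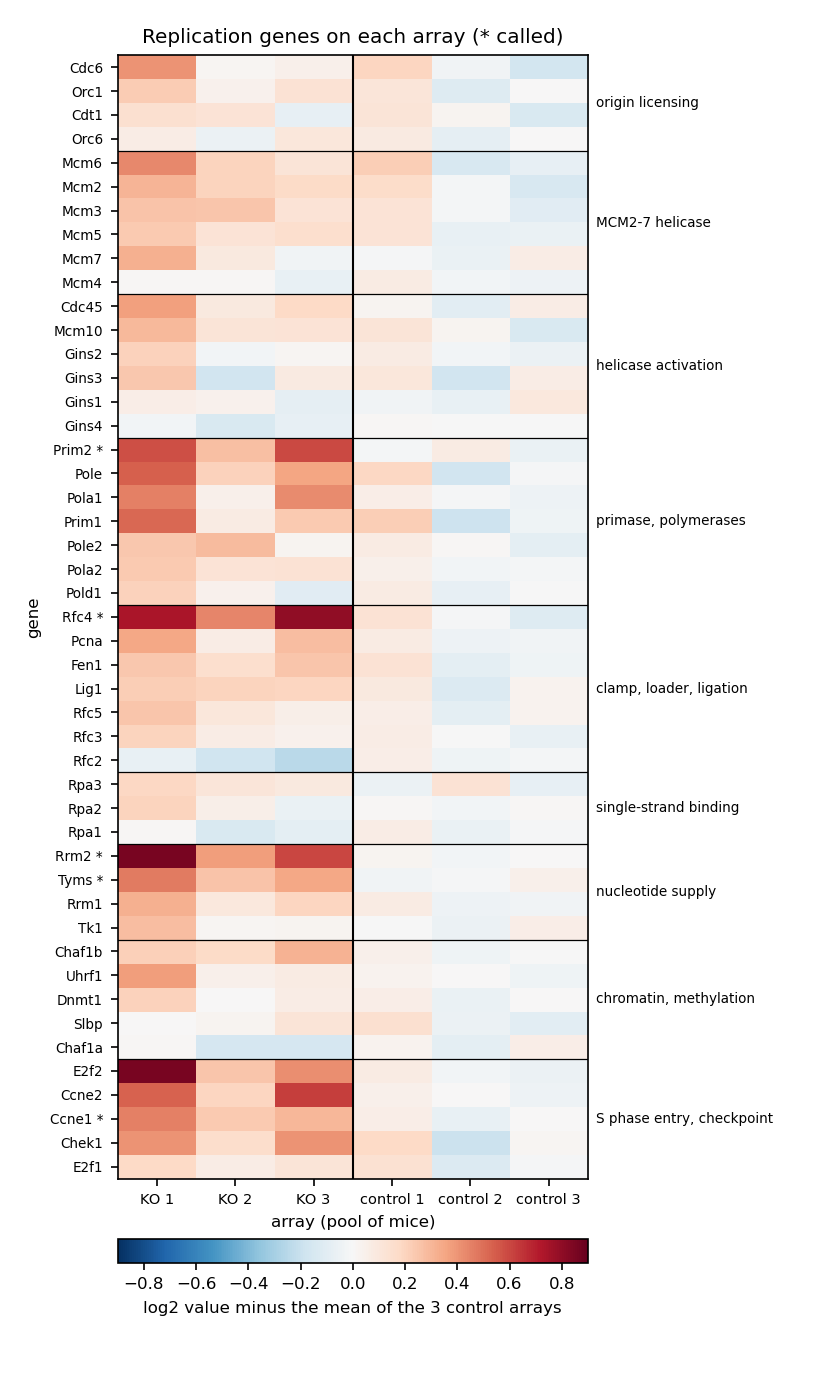
Each row is a replication gene and each column an array, with the arrays labelled knockout (KO) left of the control arrays. Colour gives the log2 value minus the mean of the 3 control arrays, and asterisks mark the 5 genes called by limma. KO 1, with a mean of 7.85, is the reddest column, KO 2 is the palest of the KO columns at 7.65, and control 1 is redder than the other control columns at 7.63.

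The pools differed among themselves as well as between the groups. The mean of the 47 log2 values was 7.85, 7.65 and 7.71 in the labelled knockout pools, against 7.63, 7.50 and 7.53 in control pools. Knockout 1 was the highest of its group for 37 of the 47 genes, and control 1 the highest of its group for 38. The lowest knockout array and the highest control array, knockout 2 and control 1, are the male pools. Between these 2 male pools the median difference over the genes was 0.01, with 25 of 47 positive, while among the female pools it was 0.24, with 42 of 47 positive. The medians over all genes were -0.01 and 0.015. A limma fit with group, sex and their interaction, added after these values were seen, called the interaction for 0 of the 47 genes (lowest adjusted p = 0.362) and 0 of 19938 genes. Its unadjusted p was under 0.05 for 8 of the 47, all with the smaller difference in the male pools, and for 2040 of all genes, 917 of them in that direction. That fit rests on 1 male pool in each group. The groups did not overlap for any of the 5 called genes, so for these the male array labelled knockout was bound to be the higher one. It was higher by 0.18 for Ccne1 up to 0.35 for Rrm2. Among the female pools alone, limma called 2 of the 47 genes, Rfc4 and Ccne2, both higher. Of all 19938 genes that fit called 114 higher and 84 lower.

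The array titles number the pools within each group and do not state pairs. Arrays of the same number deviated weakly together, with correlations of 0.192, 0.103 and 0.111, and on these same data the numbers were taken as pairs. Arrays of different numbers had correlations of -0.135 to 0.043. Because the pairs were chosen and fitted on the same data, calls that only the fit with pairs gives are not independent support. Pair 1 sets a female knockout pool against a male control pool, and pair 2 the reverse. A fit that takes these pairs as a block, the blocked fit below, called 9 of the 47 genes higher (19.1%), against 3.08% of all genes. All 5 genes called without the block were among them, and the other 4 were Pole, E2f2, Prim1 and Chek1. Within pairs 1, 2 and 3 the median differences over the 47 genes were 0.18, 0.15 and 0.16. In 32 genes all 3 pairs were positive (68.1%, against 22.5% of all genes). Calls also depended on single arrays. The count of called genes was 6 without knockout 1 and 10 without knockout 2, but 0 without knockout 3, control 2 or control 3, and 1, Rfc4, without control 1. Over all genes the calls moved too, with 670 higher on all arrays, 664 without knockout 1 and 835 without knockout 2. They were 310 without knockout 3, and 206, 144 and 158 without control 1, 2 and 3. Without knockout 3, control 2 or control 3, 14, 9 and 10 of the 47 genes had an unadjusted p under 0.05 in the higher direction. Over all 19938 genes the counts in these fits were 1887, 1578 and 1639.

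The origin licensing genes differed little from the controls. None of Orc1, Orc6, Cdc6 and Cdt1 passed, and their differences lay between 0.04 and 0.16. Orc6, a subunit of the origin recognition complex, read 7.82, 7.70 and 7.85 in the labelled knockout pools, against 7.83, 7.67 and 7.75 in control pools, and the groups overlapped. Cdc6, the loader of the helicase, varied within each group, from 6.31 to 6.70 on the arrays labelled knockout and from 6.13 to 6.49 on the control arrays. Its difference of 0.16 ± 0.13 (SE, n = 3 per group) was close to that error. Cdt1, which works with Cdc6, and Orc1, the largest subunit of the complex, had differences of 0.06 ± 0.09 and 0.13 ± 0.08.

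The 6 subunits of the MCM helicase, which unwinds the DNA, had differences of -0.01 to 0.25, and 0 of 6 passed limma, while Mcm2, Mcm3 and Mcm5 had an unadjusted p under 0.05. Mcm2 read 8.37, 8.27 and 8.24 in the labelled knockout pools, against 8.23, 8.05 and 7.92 in control pools (0.23 ± 0.09, limma adjusted p = 0.181). The groups came within 0.01 of each other without overlapping. Mcm3 and Mcm5 had their lowest array labelled knockout level with their highest control array. Mcm6 had a difference of 0.25 ± 0.12 and a limma adjusted p of 0.291, and of 0.0789 in the blocked fit. Mcm7 stood at 0.13 ± 0.09. Mcm4 was the exception, with 8.00, 8.00 and 7.92 in the labelled knockout pools, against 8.06, 7.96 and 7.94 in control pools, a difference of -0.01 ± 0.06. The 6 proteins form a single ring. The standard errors of these differences, 0.06 to 0.12, were of the same order as the differences themselves.

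Genes that turn the helicase on had no call either. Cdc45, a cofactor of the active helicase, read 7.29, 7.01 and 7.10 in the labelled knockout pools, against 6.95, 6.83 and 6.99 in control pools, with a gap of 0.02 between the groups and a limma adjusted p of 0.206. Mcm10, which joins the helicase at activation, differed by 0.18 ± 0.08. The 4 GINS subunits lay between -0.08 and 0.07. Gins1 was the least different of all 47 genes, with 5.42, 5.40 and 5.28 in the labelled knockout pools, against 5.33, 5.30 and 5.46 in control pools. Gins4 read 9.06, 8.95 and 9.01 in the labelled knockout pools, against 9.10, 9.08 and 9.08 in control pools, so that its groups did not overlap although its difference was only -0.08 ± 0.05 (limma adjusted p = 0.435).

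All 7 genes for primase and the polymerases had positive differences, with a median of 0.27, and 1 rose. Prim2, the large subunit of primase, which makes the RNA primers, read 8.75, 8.44 and 8.76 in the labelled knockout pools, against 8.15, 8.24 and 8.11 in control pools. Every array labelled knockout was above the control arrays by at least 0.20. The difference was 0.48 ± 0.10 (SE, n = 3 per group), or 1.4-fold, with a limma adjusted p of 0.0263 and of 0.0493 in the blocked fit. The small primase subunit Prim1 overlapped between groups, with 7.52, 7.08 and 7.24 in the labelled knockout pools, against 7.23, 6.82 and 6.97 in control pools. Its limma adjusted p was 0.321, and 0.0434 in the blocked fit, and all 3 pairs differed by 0.26 to 0.29. Pole, the catalytic subunit of polymerase epsilon, read 7.50, 7.17 and 7.32 in the labelled knockout pools, against 7.15, 6.79 and 6.95 in control pools. The groups of Pole were 0.02 apart, and its difference of 0.37 ± 0.12 had a limma adjusted p of 0.114, or 0.0191 in the blocked fit. Pola1, the catalytic subunit of polymerase alpha, stood at 0.31 ± 0.11, its partner Pola2 at 0.163 ± 0.055 and the epsilon subunit Pole2 at 0.18 ± 0.08. Pold1, the catalytic subunit of polymerase delta, had a difference of only 0.05 ± 0.09.

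**Figure D2:**
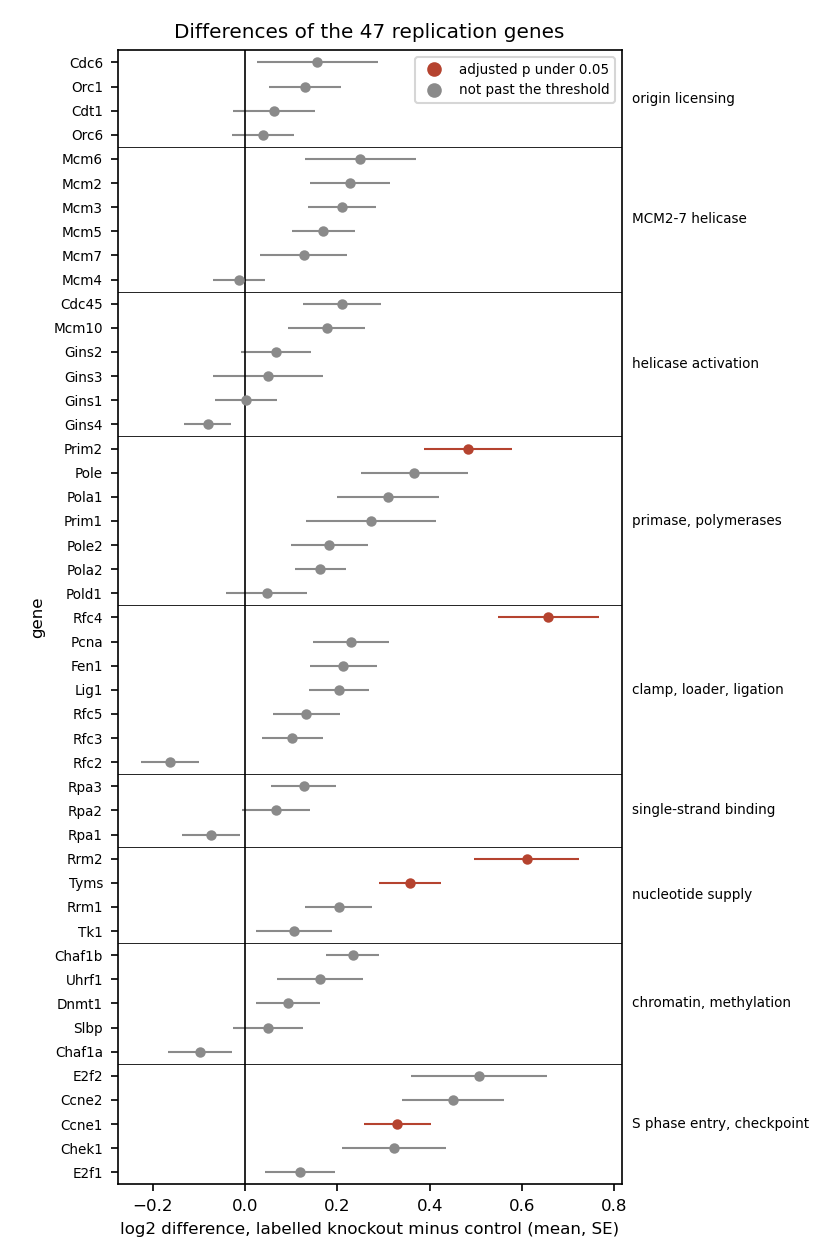
Points give the log2 difference, labelled knockout minus control, of each gene with its standard error, ordered by role. Red points are the 5 genes past an adjusted p of 0.05. Positive differences reach 0.66 for Rfc4, and the lowest is -0.16 for Rfc2.

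The clamp loader held both extremes of the 47 genes. Rfc4, a small subunit of the loader that puts Pcna on DNA, read 9.39, 9.09 and 9.45 in the labelled knockout pools, against 8.78, 8.64 and 8.54 in control pools. All arrays labelled knockout were above all control arrays by 0.31 or more. It rose by 0.66 ± 0.11, or 1.58-fold (limma adjusted p = 0.0147, and 0.0186 in the blocked fit). Rfc2, another small subunit of the same complex, was the lowest, with 7.98, 7.87 and 7.81 in the labelled knockout pools, against 8.11, 8.01 and 8.03 in control pools. Its groups did not overlap, and the difference of -0.16 ± 0.06 did not pass (limma adjusted p = 0.184). Rfc3 and Rfc5 lay between, at 0.10 ± 0.07 and 0.13 ± 0.07.

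Pcna itself, the sliding clamp, averaged 10.88 ± 0.15 in the labelled knockout pools, against 10.65 ± 0.07 in control pools (SD, n = 3 each). Knockout 2 fell just below control 1, and the difference of 0.23 ± 0.08 had a limma adjusted p of 0.160, and of 0.113 in the blocked fit. Leaving out knockout 2 gave 0.0336, and leaving out any other array gave 0.221 to 0.383. A second Pcna probe set differed from it by 0.01 at most on each array. The flap endonuclease Fen1 and the DNA ligase Lig1, which finish the lagging strand, had differences of 0.21 ± 0.07 and 0.203 ± 0.065. Lig1 read 7.52, 7.50 and 7.49 in the labelled knockout pools, against 7.39, 7.18 and 7.33 in control pools, without overlap (limma adjusted p = 0.122). The single-strand binding proteins Rpa1, Rpa2 and Rpa3 lay at -0.07, 0.07 and 0.13, and each overlapped between groups. For Rpa3 the 2 probe sets differed in sign, at 0.13 and -0.01.

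Genes for the supply of deoxynucleotides gave 2 of the 5 calls. Rrm2, the regulated subunit of ribonucleotide reductase, read 8.23, 7.75 and 7.98 in the labelled knockout pools, against 7.40, 7.35 and 7.38 in control pools. The control arrays were almost level and every array labelled knockout stood at least 0.35 above them. It rose by 0.61 ± 0.11, or 1.53-fold (limma adjusted p = 0.0224). Tyms, the thymidylate synthase, read 8.66, 8.45 and 8.54 in the labelled knockout pools, against 8.16, 8.18 and 8.24 in control pools. It rose by 0.36 ± 0.07, or 1.28-fold (limma adjusted p = 0.0222), and the groups were 0.21 apart. Rrm1, the large subunit that is less tied to S phase than Rrm2, stood at 0.20 ± 0.07 (limma adjusted p = 0.153), with 0.02 between the groups. The thymidine kinase Tk1 read 7.56, 7.30 and 7.31 in the labelled knockout pools, against 7.28, 7.23 and 7.34 in control pools, a difference of 0.11 ± 0.08. Its second probe set had a difference of -0.02.

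Among genes of S phase entry, Ccne1 rose. This cyclin E, which activates Cdk2, read 6.98, 6.76 and 6.82 in the labelled knockout pools, against 6.58, 6.46 and 6.53 in control pools. The groups were 0.18 apart, and the difference was 0.33 ± 0.07, or 1.26-fold (limma adjusted p = 0.0366, or 0.0306 in the blocked fit). Its relative Ccne2 read 7.23, 6.89 and 7.32 in the labelled knockout pools, against 6.74, 6.70 and 6.65 in control pools. The difference of 0.45 ± 0.11 had a larger standard error than that of Ccne1 and missed the threshold (limma adjusted p = 0.0530, and 0.0584 in the blocked fit).

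E2f2, an activating E2F factor, read 8.27, 7.66 and 7.83 in the labelled knockout pools, against 7.49, 7.39 and 7.36 in control pools. Knockout 1 was the highest by far, and the difference of 0.51 ± 0.15 did not pass (limma adjusted p = 0.0907) but did in the blocked fit (0.0470). E2f1 stood at 0.12 ± 0.08 and overlapped between groups. Chek1, the checkpoint kinase that guards replicating DNA, had a difference of 0.32 ± 0.11 (limma adjusted p = 0.145, or 0.0378 in the blocked fit).

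**Figure D3:**
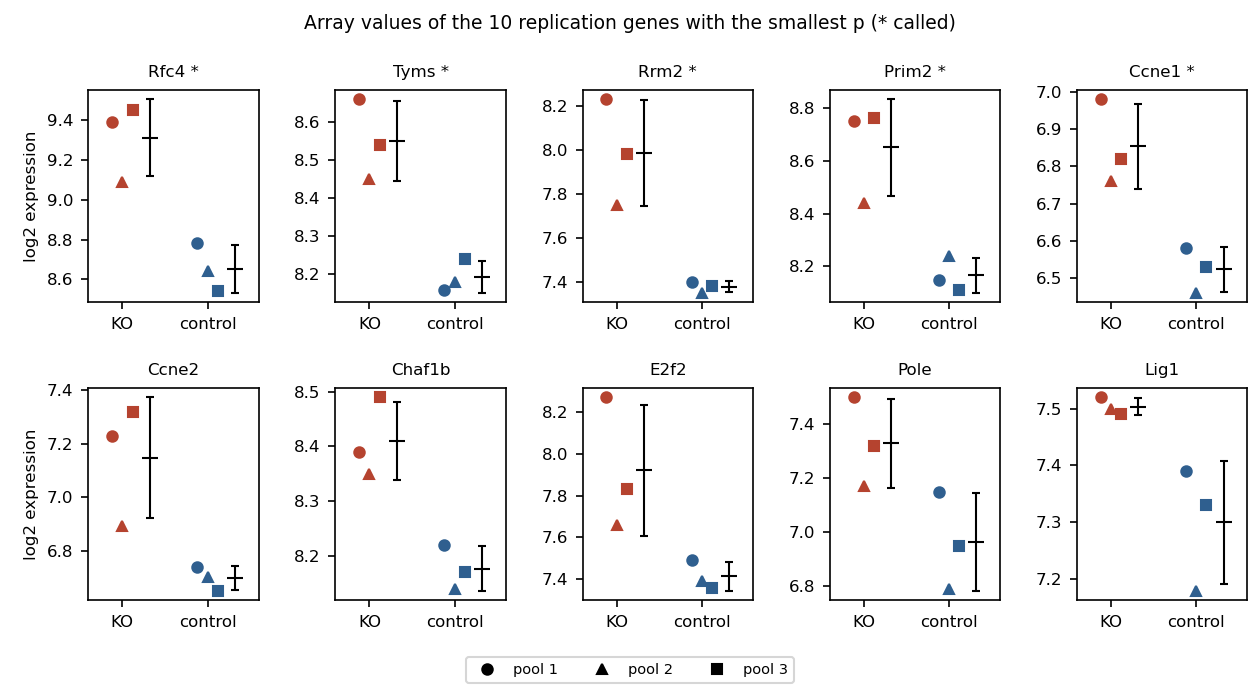
Log2 values on every array for the 5 called genes (upper row, asterisks) and the 5 uncalled genes with the smallest p (lower row), KO left of control. Black bars give the mean and SD of 3 pools, and marker shapes give the pool number. In every panel all KO arrays lie above all control arrays, and in every panel but Lig1 the triangle, KO 2, is the lowest KO array.

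Chromatin genes of the fork gave no call. Chaf1b, a subunit of the histone chaperone that places nucleosomes on new DNA, read 8.39, 8.35 and 8.49 in the labelled knockout pools, against 8.22, 8.14 and 8.17 in control pools. The groups were 0.13 apart and the difference of 0.23 ± 0.06 had a limma adjusted p of 0.0544. Chaf1a, the large subunit of the same chaperone, had the opposite sign, at -0.10 ± 0.07, and overlapped between groups. Uhrf1, which recruits the maintenance methyltransferase to new DNA, stood at 0.16 ± 0.09, and the methyltransferase Dnmt1 at 0.09 ± 0.07. Slbp, which binds histone messenger RNA, had a difference of 0.05 ± 0.08.

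The calls can be set beside the E2F letters shown above. Of the 39 genes with a window, the 16 with a site had a median difference of 0.16 and 0 calls, and the 23 without had a median of 0.20 and 4 calls. The remaining called gene, Prim2, had no window. Only these exact letters within the windows were searched, so a missing match does not show that no E2F factor binds the gene. The proximal windows of the other 4 called genes are shown because none held the E2F letters in any of its 300 bases. They run from 120 bases before the start to 30 bases from the start on, and capitals mark the CCAAT box, the binding letters of the factor NF-Y.
Rrm2 (chr12:24708134-24708283, plus strand): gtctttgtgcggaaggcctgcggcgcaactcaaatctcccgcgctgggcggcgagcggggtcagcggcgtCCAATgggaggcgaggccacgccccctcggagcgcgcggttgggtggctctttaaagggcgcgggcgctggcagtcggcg
Rfc4 (chr16:23127701-23127850, minus strand): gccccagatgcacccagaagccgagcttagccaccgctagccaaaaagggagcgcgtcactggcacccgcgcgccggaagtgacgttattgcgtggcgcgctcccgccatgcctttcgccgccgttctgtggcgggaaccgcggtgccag
Tyms (chr5:30073596-30073745, minus strand): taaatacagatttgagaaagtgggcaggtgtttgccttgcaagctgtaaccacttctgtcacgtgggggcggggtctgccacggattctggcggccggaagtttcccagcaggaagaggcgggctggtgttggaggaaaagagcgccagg
Ccne1 (chr7:38107461-38107610, minus strand): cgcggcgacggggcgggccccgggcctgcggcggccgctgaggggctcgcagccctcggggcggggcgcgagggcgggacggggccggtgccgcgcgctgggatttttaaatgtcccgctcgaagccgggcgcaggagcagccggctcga

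In these stretches only Rrm2 held a CCAAT box. That box was found in the full windows of 24 of the 39 replication genes (61.5%) on either strand, against 41.7% of all tested genes. The CHR element, TTTGAA on either strand, through which the DREAM complex acts on genes of mitosis, was found in 6 of 39 replication genes (15.4%), close to the 17.3% of all tested genes. Among 29 mitosis genes with a window it was found in 21 (72.4%), and there the E2F letters were found in 3 (10.3%). The median share of G and C in the windows was 58.3% for replication genes, 59.0% for mitosis genes and 57.3% for all tested genes.

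**Figure D4:**
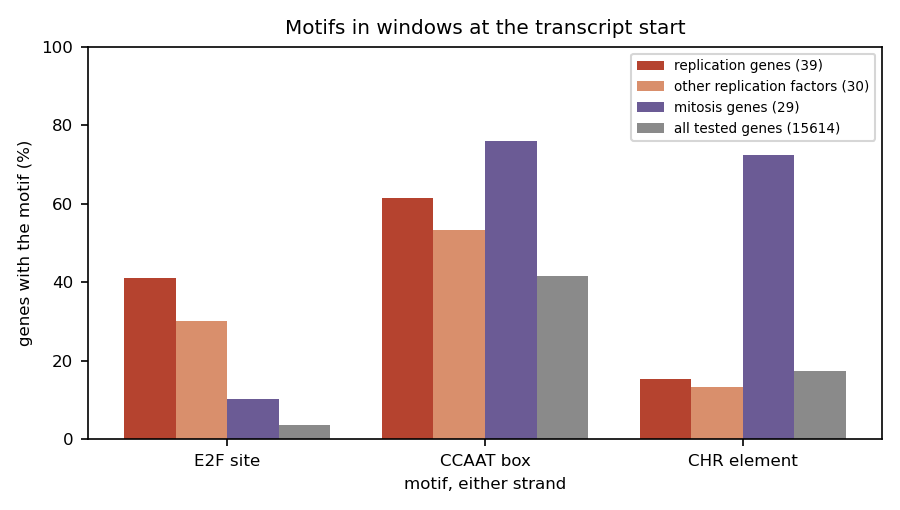
Bars give the percentage of genes with the motif in at least 1 window at the transcript start, for 39 replication genes, 30 other replication factors, 29 mitosis genes and 15614 tested genes. The E2F bar is tallest for replication genes at 41.0%, and the CHR bar is tallest for mitosis genes at 72.4%.

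The rest of the pathway was read from further lists. Over all genes, 3.36% were called higher and 8.49% in either direction. Of 35 other replication factors 2 rose and 0 fell, with a median difference of 0.11. They were Npat, an activator of histone genes, at 0.25 ± 0.06, and Asf1b, a histone chaperone, at 0.47 ± 0.11 (limma adjusted p = 0.0488 and 0.0490). Npat was not called in the blocked fit (limma adjusted p = 0.0753). The count for this list was 4 without knockout 2, and 0 without any other single array, with pool sex as a covariate or with all probe sets tested. Of 13 other enzymes of nucleotide supply 1 rose, the CTP synthase Ctps, with 8.49, 8.53 and 8.53 in the labelled knockout pools, against 7.99, 7.71 and 7.63 in control pools. Its difference of 0.74 ± 0.09 (limma adjusted p = 0.00662) exceeded that of every one of the 47 replication genes. All 13 of these enzymes had positive differences, with a median of 0.14.

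Of 29 other regulators between G1 and S phase, 3 rose and 2 fell. Cdk2, the kinase partner of cyclin E, rose by 0.27 ± 0.06 and its activating phosphatase Cdc25a by 0.27 ± 0.06 (limma adjusted p = 0.0328 and 0.0331), though neither passed in the blocked fit (0.0518 and 0.0735). The third was the cyclin Ccna2. Cdkn1c, an inhibitor of cyclin-dependent kinases, fell by 0.84, with 8.55, 8.16 and 8.18 on the arrays labelled knockout against 9.34, 9.10 and 8.97 on the control arrays (limma adjusted p = 0.0128). Cyclin D2, Ccnd2, fell by 0.65 (limma adjusted p = 0.0103). Among 11 targets of p53, 0 rose and 1 fell, Mdm2, by 0.41.

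Mitosis genes had larger differences than replication genes on these arrays. Of 34 measured, 13 rose and 0 fell, where 3.36% of all genes were called higher. The median difference was 0.59 against 0.163 for the replication genes. In 31 of 34 every array labelled knockout was above every control array, which held for 14.8% of all genes. Examples are the kinase Pbk at 0.72 ± 0.10, the checkpoint kinase Bub1 at 0.90 ± 0.14 and the mitotic kinase Cdk1 at 0.78 ± 0.15 (limma adjusted p = 0.00787, 0.0129 and 0.0261). The difference between the lists was not tested, since genes of a list are not independent samples. Both lists were also chosen with earlier results of these data known. In both lists knockout 1 had the highest and knockout 2 the lowest mean among the arrays labelled knockout. Mitosis genes had means of 8.44, 7.84 and 8.22 in the labelled knockout pools, against 7.62, 7.46 and 7.63 in control pools, with knockout 2 the lowest of its group for all 34. The count of 13 calls depended on single arrays. It was 31 without knockout 2, 11 without knockout 1, 2 without knockout 3 and 1 without control 1, control 2 or control 3. The blocked fit called 27 of them, and 2 were called with all probe sets tested.

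**Figure D5:**
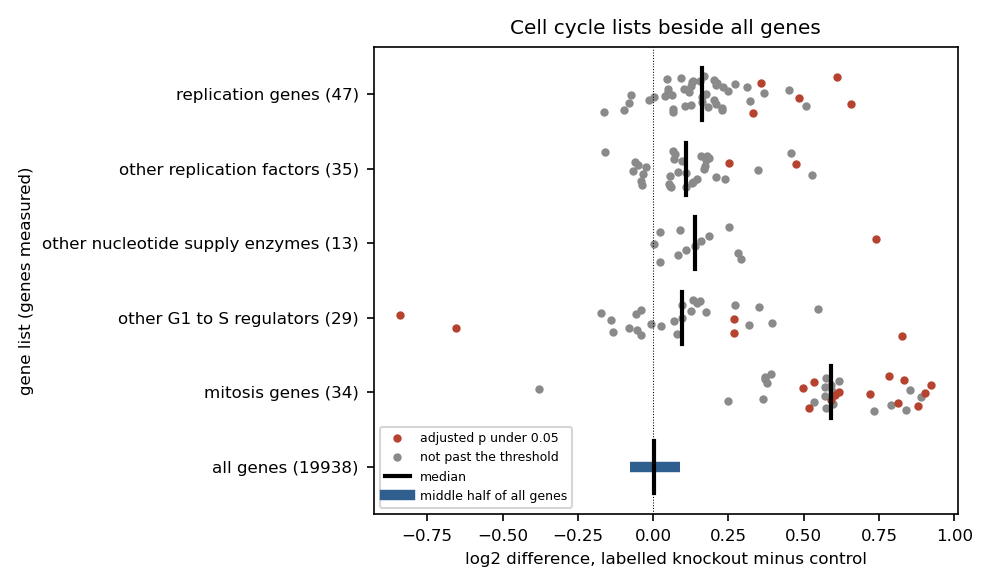
Points are genes, placed by their log2 difference, labelled knockout minus control, with red for an adjusted p under 0.05 and a black bar at each median. The blue bar spans the middle 50% of all genes, from -0.08 to 0.09. Replication genes centre at 0.163 and mitosis genes at 0.592.

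Markers of other cells in the preparation moved with some of these values. The summed log2 level of 11 T and NK cell markers was 64.64 on knockout 1, 57.13 and 57.70 on the other 2 arrays labelled knockout and 57.78 to 58.48 on the control arrays. In that list 0 of 11 passed, and Cd8a read 7.75 on knockout 1 and 6.07 to 6.18 on the other 5 arrays. The 3 measured erythroid markers summed to 31.32, 28.28 and 27.31 in the labelled knockout pools, against 27.22, 26.75 and 24.29 in control pools, with 0 of 3 called. In the blocked fit 2 of the 3 rose, Slc4a1 by 1.30 and Epb42 by 1.16 (limma adjusted p = 0.00949 and 0.0141). Without knockout 1, which was highest for both lists, 6 replication genes were called, the same 5 and E2f2. Those with an unadjusted p under 0.05 in the higher direction were then 11, against 20 with all arrays. Over all 19938 genes the same count was 2288 without knockout 1, against 2298 with all arrays. The erythroid sums of the other 2 arrays labelled knockout were still above those of the control arrays. For the counts that follow, limma on all arrays called 670 of 19938 genes higher and 1022 lower. All 9 ciliated cell markers fell, with sums of 79.17, 75.50 and 74.18 on the arrays labelled knockout against 84.32 to 85.02 on the control arrays, and 4 of 7 club cell markers fell. Of 13 alveolar macrophage markers 1 rose and 2 fell, with sums of 86.68 to 89.06 in the labelled knockout pools, against 87.48 to 88.70 in control pools. Of 7 B cell markers 1 rose, Fcer2a, and of 9 endothelial markers 2 rose and 1 fell. None of 8 monocyte and dendritic cell markers, 10 fibroblast markers and 4 mesothelial markers passed by limma, but 1 fibroblast marker, Acta2, passed in the blocked fit (adjusted p = 0.0444). Of 9 neutrophil markers 1 rose, and of 10 type I cell markers 1 rose, which the blocked fit did not call. Of 12 type II cell markers 3 rose, Cd74, Lamp3 and Lpcat1, and in the blocked fit only Cd74 was called. Whether other cells in the pools had a part in the replication transcripts was not tested.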

How the data were processed

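Expression was measured on 6 Affymetrix mouse arrays, 3 labelled knockout and 3 control, each from a pool of 3 mice. The deposited values are log2 expression values. The authors used Affymetrix Expression Console 1.1 and RMA, as named by the submitters' processing notes. RMA makes the distributions of the arrays alike, so a change shared by most genes would be lost. Array medians were 6.77 to 6.81. Precision is limited by the number of arrays.

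Of 35556 probe sets 21789 had 1 gene symbol in the platform annotation, 1621 had several and 12146 had none. The probe set with the highest mean stood for each of 19938 genes. Groups were compared across all genes by limma 3.58.1 under R 4.3.3 (two-sided moderated test from lmFit and eBayes, no filter or covariate). P-values were adjusted by Benjamini-Hochberg over all genes and called under 0.05. In simulated data for this comparison over 19938 genes, 57 of 100 genes changed by 0.5 on log2 and 90 of 100 changed by 1 were recovered, and 3 unchanged genes were called. Genes and lists were chosen with earlier results of these data known. Values on every array are given for called genes, for the 5 uncalled with the smallest p and the 3 with the smallest difference, and others are named by role. Array values of Mcm2, Cdc45, Gins4, Prim1, Rfc2 and Tk1, and the name of Ccna2, were added after they were seen. From each further list up to 4 called genes with the smallest p were eligible. Replicate numbers come from the titles. Deviations from group means correlated at 0.192, 0.103 and 0.111 within numbers 1, 2 and 3, all above 0.1, so the numbers were treated as pairs in an alternative fit. A planned search for protein motifs was not made, and histone genes were not analysed here. Alternatives left out each array, added blocks, pool sex, a trend or array weights, and changed the filter, probe sets or scaling.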

Additional observations from a re-analysis of the deposited data

How the results depend on the processing

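The 5 called genes were the same with an intensity trend, with the mean of a gene's probe sets and with arrays centred on their median, which moved each difference by 0.013. With pool sex as a covariate Ccne1 was lost, and among genes above the median level, where Ccne1 was not tested, Chaf1b was called as well. The count of replication genes called higher ranged from 0 to 10 when 1 array was left out. It was 9 with the replicate block, 18 with the first title number as a random block, 9 with array weights, 2 in female pools only and 2 with all probe sets tested. For all genes, those called higher ranged from 144 to 835 and those called lower from 301 to 1265 when 1 array was left out. With the first title number as a random block 1876 were higher and 1804 lower, in female pools only 114 and 84, and with all probe sets tested 306 and 644. The first title numbers were 9, 9 and 11 for knockout and 8, 8 and 10 for control, so none is shared between groups. The random block thus lies within groups, with an estimated correlation of -0.513. A negative correlation of that kind lowers the standard error of the group difference, so the larger counts of this fit are not stronger support. The count of replication genes called lower was 0 under every alternative run by limma, where 0 or 1 had an unadjusted p under 0.05. Signs changed only for genes near 0: when 1 array was left out, Gins1 ranged from -0.028 to 0.052, Gins2 from -0.003 to 0.112, Gins3 from -0.045 to 0.16, Pold1 from -0.033 to 0.122, Rpa2 from -0.002 to 0.128, Mcm4 from -0.037 to 0.023 and Cdt1 from -0.005 to 0.133. In female pools Gins1 was -0.03 and Mcm4 0.01, and with array weights Gins1 was -0.006. The cause of these changes was not tested.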
